A study of Mus musculus with 4 samples.

Results

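The *Speer* genes of the mouse and the stretch of chromosome 5 in which most of them lie were examined in testis of *Parp1* knockout and control mice. The set took every row of the deposited gene table whose name begins with Speer, and every row of chromosome 5 that starts between 10 and 20 Mb, which gave 67 of 25683 rows. These positions and those below are of GRCm38 (mm10), the build in the submitters' processing notes. The choice was made with earlier results of the same 4 libraries known, so the comparison of genotypes within the set is a description, and calls on members are counted without being read as a result. Of the 67 rows, 10 are *Speer* genes, 7 of them in the stretch, with *Speer4a* and *Speer4b* further along chromosome 5 and *Speer2* on chromosome 16.

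*Speer* stands for spermatogenesis-associated glutamate (E)-rich protein. The genes form a multicopy family of rodents that is transcribed in the haploid germ cells of the testis, and their sequence is related in part to that of *Dlg5*, a scaffold protein gene. Copies of such a family can be so alike that a sequencing read from one matches another equally well, which is why a count of all reads and a count of reads with a single match can differ for the same gene.

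Testis poly(A) RNA was sequenced from 2 knockout and 2 control (wild type) libraries. The knockout mice carry a neomycin resistance cassette in exon 2 of *Parp1*, an allele made in 129S mice and crossed to C57Bl/J for 7 generations, and no Cre or transgene is named for them. The paper lists C57Bl/J mice as obtained but does not say which mice served as controls, so the strain of the controls is not known here. The age of the mice was not given in the sources used here. PARG29b stands in the titles of both knockout samples, although their genotype label is PARP1ko, and the genotype label was followed. *Parp1* itself stood at 24.1 and 22.1 CPM (reads of a gene scaled by library size) in the knockout libraries, against 86.4 and 86.0 CPM in the controls, a log2 fold change of -1.90 (SE 0.10, adjusted p = 0.0126, edgeR quasi-likelihood test). The log2 fold change was -1.89 without control replicate 1 and -1.90 without control replicate 2, and in both cases *Parp1* no longer passed that test. Both sets of knockout columns carry 1 heading, so the libraries are told apart by depth. Wherever 4 values are given, they stand for the knockout library with more reads, the knockout library with fewer reads, control replicate 1 and control replicate 2.

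The 4 libraries held 21821073 and 18103863 exon reads in knockout testis, against 20449210 and 23503503 in control testis. Reads with a single match in the genome (unique reads) were examined in the controls only, where they made up 97.6 and 97.5% of these reads. Those of the knockout libraries were not analysed here. The markers of elongating spermatids, the last germ cells before sperm, set the knockout libraries on opposite sides of the controls, with summed levels of 32823 and 14955 CPM, against 24634 and 25149 CPM (10 of 10 markers did so). The Leydig cell markers summed to 1191 and 2572 CPM, against 1345 and 1703 CPM, a sum in which *Insl3* had 597 and 1796 CPM against 620 and 780 CPM. *Cyp11a1* and *Cyp17a1*, enzymes of steroid synthesis in the same list, were lower in both knockout libraries instead (log2 fold changes -0.48 and -0.51). The 8 round spermatid markers had a median log2 fold change of 0.23 and the 10 spermatogonia markers one of -0.25, and none of either list passed the test. Their part in the values of the *Speer* genes was not tested. In whole testis, fewer cells of a type and less RNA per cell cannot be told apart.

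The rows fell into 4 kinds. Beside the 10 *Speer* genes, 20 rows of the stretch share at least 25% of their 31-base words with *Speer* transcripts, the least alike being *Gm5152* at 46.4%, and these rows, nearly all with predicted-gene names, are called *Speer*-related here. The other 12 genes with exons share none of those words. They are *Sema3a*, *Sema3c*, *Sema3d* and *Sema3e* (secreted semaphorins that guide axons), *Pclo* (a presynaptic scaffold), *Cacna2d1* (a calcium channel subunit), *Hgf* (the ligand of the Met receptor), *Cd36* (a fatty acid and scavenger receptor), *Gnat3* and *Gnai1* (G protein alpha subunits), *Magi2* (a membrane scaffold) and *Gm28710*. The last 25 rows have an exon length of 0 in the table, so no exon read could fall on them. Reads were found for all other 42 rows, and 39 had enough to be compared.

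How alike the copies are is shown by the first 150 coding bases of close copies whose values are set against each other below, given 5′ to 3′ from GENCODE M21 transcripts on GRCm38. *Speer1* (chr5:11341613-11342819, + strand), *Gm8879* (chr5:11127732-11129008, +) and *4933402N22Rik* (chr5:11918141-11919338, +) come first, each stretch spanning 2 exons, and capitals mark a base that differs from *Speer1*.
Speer1: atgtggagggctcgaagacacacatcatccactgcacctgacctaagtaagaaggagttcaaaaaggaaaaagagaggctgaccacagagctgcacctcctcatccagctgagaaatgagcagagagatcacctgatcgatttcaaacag
Gm8879: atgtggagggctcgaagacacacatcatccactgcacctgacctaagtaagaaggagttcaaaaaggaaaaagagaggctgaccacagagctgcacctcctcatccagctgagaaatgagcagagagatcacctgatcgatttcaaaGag
4933402N22Rik: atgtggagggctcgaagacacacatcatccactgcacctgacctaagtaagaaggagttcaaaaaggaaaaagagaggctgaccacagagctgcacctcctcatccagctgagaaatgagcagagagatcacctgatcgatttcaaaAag
Over their whole coding sequence of 471 bases, *Gm8879* and *Speer1* were 98.7% identical, and *Gm8879* and *4933402N22Rik* 99.2%.

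*Speer4f1* (chr5:17476126-17477270, +) and *Speer4f2* (chr5:17373210-17374354, +) are neighbours, and in these bases, again from 2 exons, they differ once. Capitals mark the base that differs from *Speer4f1*.
Speer4f1: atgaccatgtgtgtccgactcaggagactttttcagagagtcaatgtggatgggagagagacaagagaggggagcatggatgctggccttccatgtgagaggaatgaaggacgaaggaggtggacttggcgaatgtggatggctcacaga
Speer4f2: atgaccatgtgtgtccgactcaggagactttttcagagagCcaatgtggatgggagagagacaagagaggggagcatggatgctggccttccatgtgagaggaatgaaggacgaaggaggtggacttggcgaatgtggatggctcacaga
Over the whole coding sequence, of 774 bases in *Speer4f1* and 885 in *Speer4f2*, they were 86.4% identical. Bases without a partner in the other gene count as not identical here, so the difference in length lowers this value.

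*Speer4e* (chr5:14937240-14938406, - strand), *Gm17019* (chr5:15031774-15032938, -) and *Gm21149* (chr5:15475297-15476463, -) stand for the copies between 14 and 16 Mb, where *Gm17019* had the lowest level relative to control of all members. Capitals mark bases that differ from *Speer4e*, 3 in *Gm17019* and 7 in *Gm21149*.
Speer4e: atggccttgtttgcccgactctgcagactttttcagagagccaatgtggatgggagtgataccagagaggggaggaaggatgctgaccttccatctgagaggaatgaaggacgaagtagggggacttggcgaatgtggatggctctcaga
Gm17019: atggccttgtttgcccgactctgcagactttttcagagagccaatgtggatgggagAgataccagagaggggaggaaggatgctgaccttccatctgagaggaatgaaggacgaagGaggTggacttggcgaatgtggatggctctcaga
Gm21149: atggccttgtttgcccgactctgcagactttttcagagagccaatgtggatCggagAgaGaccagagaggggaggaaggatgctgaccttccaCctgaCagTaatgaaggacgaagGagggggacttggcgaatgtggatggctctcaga
All 3 have 765 coding bases, of which 98.6% are identical between *Gm17019* and *Speer4e* and 98.2% between *Gm21149* and *Speer4e*.

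Among the *Speer* genes, *Speer4f2*, *Speer4b* and *Speer1* were at least 2-fold lower in knockout testis, of which only *Speer4f2* was so with any 1 library left out. *Speer4f2* had 10 and 21 reads in knockout testis, against 77 and 86 in control testis. That is 0.494 and 1.09 CPM against 3.74 and 3.63 CPM, with both knockout libraries far under both controls and a log2 fold change of -2.21 (SE 0.43). Its neighbour *Speer4f1*, about 0.1 Mb away, had 179 and 152 reads in knockout testis, against 188 and 201. The levels of *Speer4f1* overlapped, at 8.84 and 7.92 CPM against 9.12 and 8.49 CPM (log2 fold change -0.07, SE 0.17). In the controls 98.8% of the reads of *Speer4f2* and 97.9% of those of *Speer4f1* were unique, so few reads of either matched elsewhere.

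*Speer1* had 147 and 123 reads in knockout testis, against 331 and 297 in control testis. In CPM these are 7.26 and 6.41 against 16.1 and 12.5, a log2 fold change of -1.06 (SE 0.19). The genotypes did not overlap. The log2 fold change was -0.87 without control replicate 1 and -0.97 with the shallower knockout library left out. Of its control reads 52.0 and 42.4% were unique, the lowest share of the *Speer* genes, so its count rests on many reads that also match a related copy. *Gm8879*, with which *Speer1* shares nearly all coding bases, stood on the other side. It had 700 and 692 reads in knockout testis, against 503 and 546, or 34.6 and 36.1 CPM against 24.4 and 23.1 CPM. Its log2 fold change was 0.57 (SE 0.11) with no overlap between the genotypes, and 65.1% of its control reads were unique. *Gm8926*, which holds 89.2% of the 31-base words of *Speer1*, more than any other gene, was lower like *Speer1* (log2 fold change -0.71, SE 0.19).

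*Speer4b*, at 27.5 Mb, had 44 and 54 reads in knockout testis, against 137 and 103, and 99.6% of the control reads were unique. The log2 fold change was -1.14 (SE 0.32), with both knockout libraries under both controls. It was -0.80 without control replicate 1 and -0.96 with the deeper knockout library left out. *Speer4a*, whose coding sequence is 95.1% identical to that of *Speer4b* and which lies at 26.0 Mb, had 48 and 54 reads against 49 and 45. Its levels overlapped between genotypes (log2 fold change 0.28, SE 0.30). The family members of one subgroup therefore took unlike values also outside the 10 to 20 Mb stretch.

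The other *Speer* genes lay closer to their controls. *Speer4e* had 49 and 51 reads in knockout testis, against 103 and 106, a log2 fold change of -0.90 (SE 0.25), and *Speer4d* 32 and 46 against 59 and 63, one of -0.47 (SE 0.33). In both genes the knockout libraries were the lowest, by a wide gap in *Speer4e* and a narrow one in *Speer4d* (2.40 against 2.66 CPM between the nearest libraries). *Speer4c* had 220 and 215 reads against 234 and 219. Its log2 fold change was 0.10 (SE 0.17). *Speer3* had 67 and 50 reads against 67 and 52, the control reads all unique (log2 fold change 0.12, SE 0.33). Neither *Speer4c* nor *Speer3* separated the genotypes.

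*Speer2*, the member on chromosome 16, was the most abundant of the family per length of transcript, at 98.4 TPM (reads scaled by exon length and depth) in knockout testis and 85.6 TPM in control testis as means of 2 libraries. It had 1024 and 888 reads, against 920 and 909, and all control reads were unique. The knockout libraries were just above the controls, at 50.6 and 46.3 CPM against 44.6 and 38.4 CPM (log2 fold change 0.22, SE 0.12). *Speer4c*, *Speer4f1* and *Speer1* came next on this scale in both genotypes, in differing order, at 21.1, 15.1 and 13.8 TPM in knockout testis, against 19.9, 16.2 and 29.4 TPM in control testis.

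**Figure D1:**
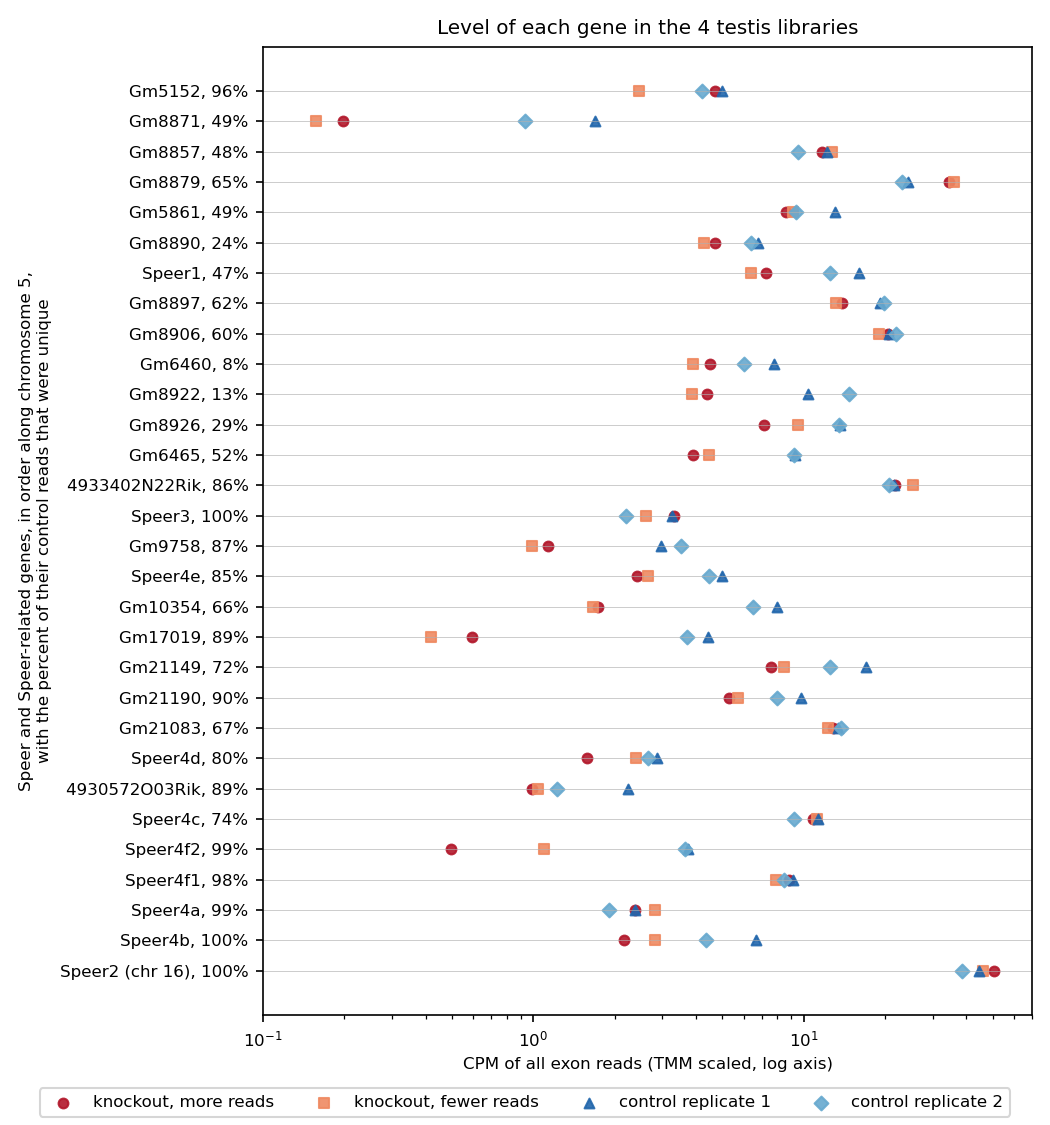
Level of each *Speer* and *Speer*-related gene in the 4 libraries in CPM of all exon reads scaled by TMM (log axis), with genes from top to bottom in order along chromosome 5, *Speer2* of chromosome 16 last, and the percent of control reads that were unique beside each name; each point is 1 library. The knockout points of *Gm17019*, at 0.593 and 0.417 CPM, lie far left of its controls at 4.42 and 3.72 CPM, whereas those of *Gm8879* lie to the right of its controls and those of *Speer4f1* at 8.84 and 7.92 CPM overlap its controls at 9.12 and 8.49 CPM.

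The *Speer*-related rows came in 2 blocks. The block from *Gm5152* to *4933402N22Rik*, at 10 to 12 Mb, holds 14 genes with *Speer1*, and the one from *Gm9758* to *Speer4c*, at 14 to 16 Mb, holds 10 with *Speer4e*, *Speer4d* and *Speer4c*. *Speer3* lies between them and *Speer4f2* and *Speer4f1* beyond them.

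In the 14 to 16 Mb block, 9 of 10 genes were lower in both knockout libraries than in either control, where 19.2% of all genes compared were, and *Speer4c* overlapped. *Gm17019* had 12 and 8 reads in knockout testis, against 91 and 88 in control testis, a log2 fold change of -2.99 (SE 0.36). *Gm10354* had 35 and 32 reads against 165 and 154 (log2 fold change -2.09, SE 0.25). For both genes the control values were several times the knockout values, with a narrow spread within each genotype. They differed in how many control reads matched nowhere else, 89.4% for *Gm17019* and 66.1% for *Gm10354*. *Gm9758*, at 23 and 19 reads against 61 and 83, had a log2 fold change of -1.60 (SE 0.32), and 86.8% of its control reads were unique. *Gm21149*, the most abundant of these in control testis, had 154 and 163 reads against 350 and 296, a log2 fold change of -0.87 (SE 0.20). *Gm21190* had 107 and 110 against 202 and 188 (-0.69, SE 0.20). Both again had their lowest 2 levels in the knockout libraries. The genotypes lay close together in *Speer4d*, given above, *4930572O03Rik*, at 0.988 and 1.04 CPM against 2.23 and 1.23 CPM, and *Gm21083*, at 12.8 and 12.3 CPM against 13.4 and 13.7 CPM.

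Summed over this block, the level was 45.0 and 46.9 CPM in knockout testis, against 77.0 and 65.5 CPM, so that the mean knockout level was 64.5% of the control mean. The median log2 fold change of the 10 genes was -0.81, beside 0.01 over all genes compared. In the controls 78.9 and 73.6% of the reads of the block were unique.

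The 10 to 12 Mb block was less uniform. Of its 14 genes 10 were lower in both knockout libraries than in either control (19.2% of all genes), 2 (*Gm8879* and *4933402N22Rik*) were higher in both (17.9% of all genes), and 2 (*Gm5152* and *Gm8857*) overlapped. *Gm8871* had the largest difference of the block, with 4 and 3 reads in knockout testis against 35 and 22 in control testis (log2 fold change -2.84, SE 0.58). It overlaps *Gm8857* on the same strand, and only 17 and 11 of its control reads were unique. *Gm8857* itself had 236 and 244 reads against 251 and 225 (log2 fold change 0.17, SE 0.18), and how reads in the overlap were assigned is not given in the sources used here.

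*Gm8922* had 89 and 74 reads in knockout testis, against 214 and 349, a log2 fold change of -1.61 (SE 0.24). Every 150-base word of its transcript also occurs in another gene, and only 42 and 34 of its control reads were unique. *Gm6460*, the other gene of which this holds, had 91 and 75 reads against 160 and 143 (log2 fold change -0.71, SE 0.24), of which 14 and 11 in the controls were unique. The 2 genes share 99.0% of their 597 coding bases. In both, the knockout libraries were under both controls, and most control reads also matched another place.

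*Gm6465*, at 11.8 Mb, had 79 and 86 reads in knockout testis, against 191 and 218, a log2 fold change of -1.14 (SE 0.19). *Gm8926* had 144 and 183 against 281 and 321 (-0.71, SE 0.19). *Gm8897* had 280 and 252 against 396 and 469 (-0.53, SE 0.13). These 3, like *Gm8890* (log2 fold change -0.55, SE 0.20), were lower in both knockout libraries, and between 23.7 and 61.8% of their control reads were unique. *Gm5861* and *Gm8906* were lower by little, with log2 fold changes of -0.33 and -0.10. *4933402N22Rik* was one of the more abundant, at 48.2 TPM in knockout testis and 43.4 TPM in control testis. It had 441 and 487 reads against 446 and 492, a log2 fold change of 0.15 (SE 0.13). With 21.8 and 25.4 CPM against 21.6 and 20.8 CPM, it separated the genotypes by little. At 86.0% unique control reads it was the gene of the block with the most, after *Gm5152* at 96.1%, and *Gm5152* had overlapping levels.

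Summed, the 10 to 12 Mb block stood at 148 and 151 CPM in knockout testis, against 182 and 172 CPM, or 84.3% of the control mean. The median log2 fold change was -0.54. In this block 56.3 and 49.6% of the control reads were unique, so that it was both the block with the smaller difference and the one whose reads were more often shared between copies.

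**Figure D2:**
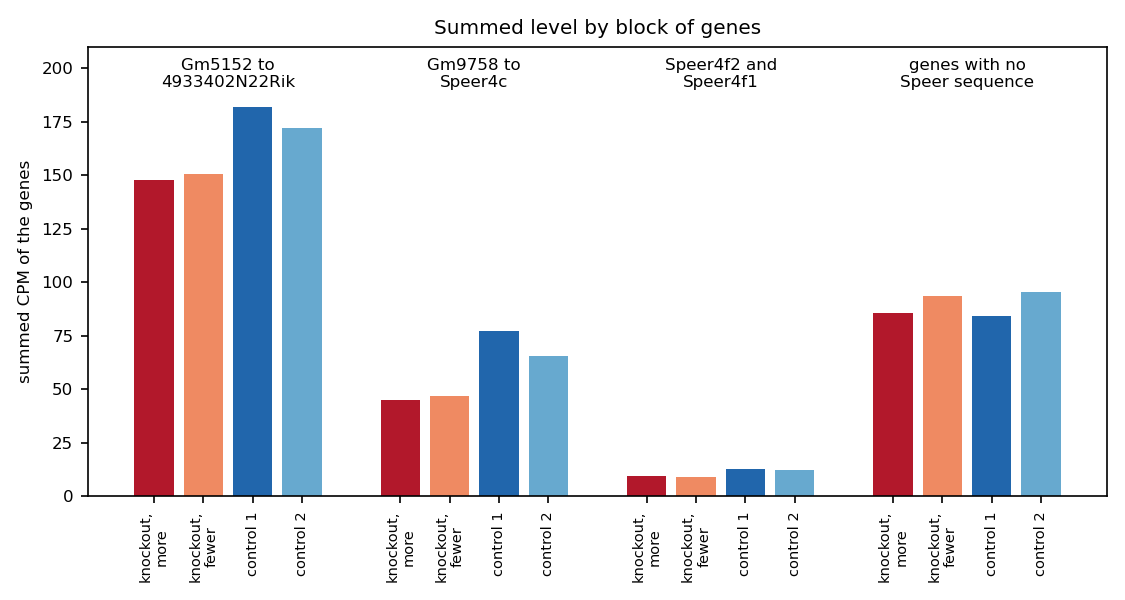
Summed level in CPM of all exon reads of the genes of each block and of the 12 neighbours without *Speer* sequence; each bar is 1 library, with knockout libraries left of controls. The knockout bars of the *Gm9758* to *Speer4c* block, at 45.0 and 46.9 CPM, are well under its control bars at 77.0 and 65.5 CPM, and the neighbours, at 85.6 and 93.6 CPM in knockout testis and 84.1 and 95.7 CPM in control testis, overlap.

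Over the whole set, 0 of 39 members compared had an adjusted p under 0.05 by edgeR's quasi-likelihood test, where 0.0821% of all 15834 genes were called lower and 0.0126% higher. At an unadjusted p under 0.05 there were 17 members, beside 7.79% of all genes. Other tools gave other counts. DESeq2 called 6 lower (*Gm10354*, *Gm17019*, *Gm6465*, *Gm8922*, *Speer1* and *Speer4f2*), beside 0.764% of all genes, and 0 higher, beside 0.455%. edgeR's likelihood ratio test called 9 lower, beside 1.41%, and 1 (*Gm8879*) higher, beside 0.947%. limma voom called 0, where it called 11 of all 15834 genes. Since the set was chosen on this comparison, nothing is read from these counts. With 2 samples a genotype, and no label saying that they are separate animals, such p-values measure only the spread between these libraries.

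Counted by overlap, 5 of 10 *Speer* genes, 16 of 20 *Speer*-related genes and 2 of 9 neighbours were lower in both knockout libraries than in either control, where 19.2% of all genes were. Higher in both were 1, 2 and 2, where 17.9% of all genes were. At least 2-fold lower were 3 *Speer* genes, 6 *Speer*-related genes and, of the neighbours, *Gm28710*, where 2.38% of all genes were. No member was at least 2-fold higher, where 1.48% of all genes were. The median log2 fold change of the *Speer* genes was -0.27, that of the *Speer*-related genes -0.70, and that of the neighbours 0.03.

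*Speer* and *Speer*-related genes were divided, after their values were seen, at 80% unique reads in the controls. Of the 13 genes above it, 7 were lower in both knockout libraries, where 19.2% of all genes were. At least 2-fold lower were 4 of the 13 (*Gm17019*, *Gm9758*, *Speer4b* and *Speer4f2*), where 2.38% of all genes were. Their median log2 fold change, over all 13, was -0.69. Of the 17 below it, 14 were lower in both and 5 at least 2-fold lower, with a median of -0.55. The 7 *Speer* genes above it spanned both ends, with a median of -0.07 and a range of -2.21 to 0.28. Their summed level, of which *Speer2* is the larger part, was 70.2 and 66.2 CPM in knockout testis, against 74.8 and 63.5 CPM, and overlapped. The 6 *Speer*-related genes above it had a median of -0.72, and their sum did not overlap, at 34.5 and 36.0 CPM against 46.0 and 41.4 CPM.

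The median log2 difference of the *Speer* genes from the control mean was -0.38 in the deeper knockout library and -0.17 in the shallower one. For the *Speer*-related genes these medians were -0.64 and -0.62. A list of 15 other genes (*Slx*, *Sly*, *Ssty2*, *Zfy2*, *Rbmy* and others) was set beside them. They were taken as multicopy genes of spermatids, without a check of copy number or cell type here. None of the 13 of these with enough reads passed the test, and their median log2 fold change was 0.18 (range -0.47 to 0.97). The top of this range was *Slx*, at only 0.938 and 0.573 CPM against 0.340 and 0.422 CPM. Of the 13, 6 were higher in both knockout libraries than in either control, where 17.9% of all genes were. In the other direction, 1 was lower in both, where 19.2% of all genes were. Of their control reads 98.4 and 98.0% were unique. Of the 5 *Dlg* genes none passed it either (median 0.12).

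**Figure D3:**
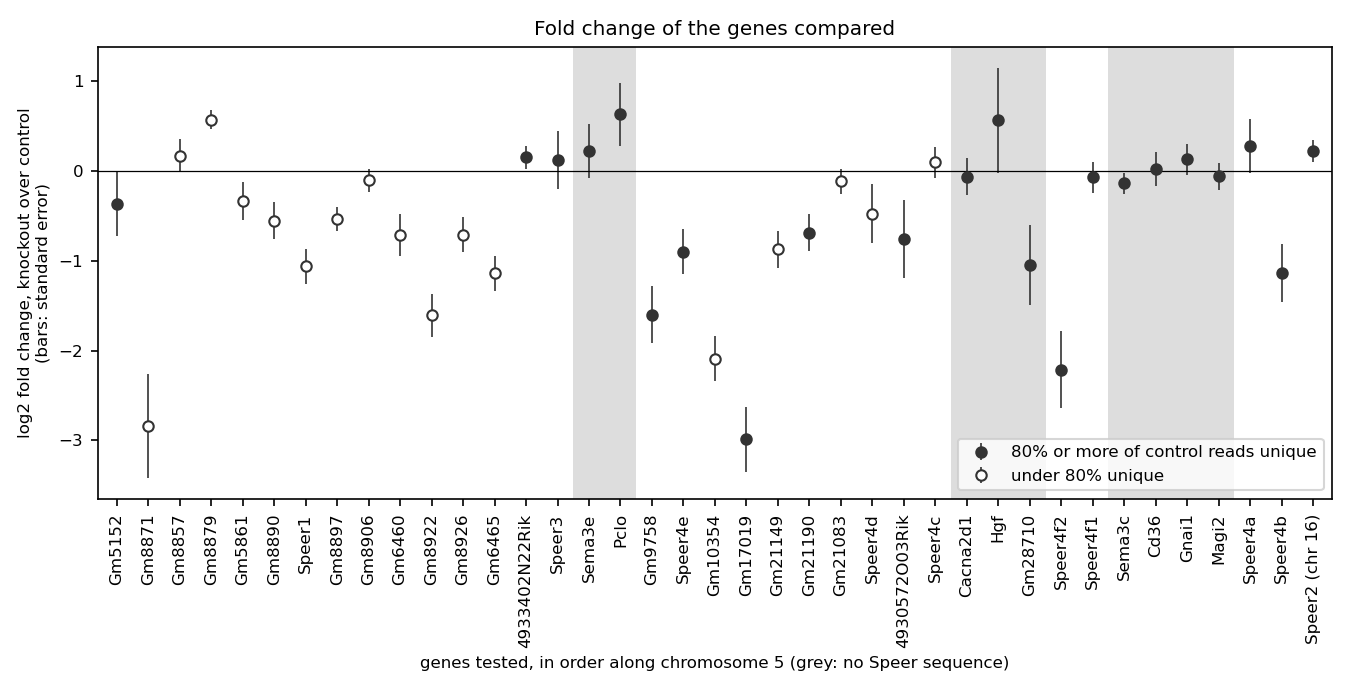
Log2 fold change of knockout over control for the 39 members compared, with its standard error, from all exon reads, in order along chromosome 5 with *Speer2* last; filled circles are genes with at least 80% unique reads in the controls, open circles the others, and grey bands mark genes without *Speer* sequence. Values far below 0 occur among filled circles (*Gm17019* at -2.99, *Speer4f2* at -2.21) and open ones (*Gm8871* at -2.84, *Gm10354* at -2.09). The genes in the grey bands run from -1.05 (*Gm28710*) to 0.63 (*Pclo*). Among them *Cacna2d1*, *Cd36*, *Gnai1* and *Magi2* lie between -0.06 and 0.13.

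The neighbours interleave with the copies. *Cacna2d1*, between *Speer4c* and *Speer4f2*, had 111 and 98 reads in knockout testis, against 119 and 125 (log2 fold change -0.06, SE 0.21). *Cd36* had 517 and 489 against 422 and 700 (0.03, SE 0.19), *Gnai1* 335 and 394 against 321 and 433 (0.13, SE 0.17) and *Magi2* 214 and 225 against 237 and 277 (-0.06, SE 0.15). The levels of these 4 overlapped between the genotypes. *Sema3c*, next to *Speer4f1*, was slightly lower in both knockout libraries, at 22.1 and 24.7 CPM against 25.3 and 26.2 CPM (log2 fold change -0.14, SE 0.12). *Pclo* and *Sema3e*, which lie between the blocks, were higher in both. *Pclo* had 36 and 47 reads against 31 and 29 (0.63, SE 0.35), the largest rise of the members compared. *Sema3e* stood at 2.07 and 2.03 CPM against 1.80 and 1.73 CPM (0.22, SE 0.30). *Hgf*, at 13 and 23 reads against 18 and 9, overlapped. *Gm28710* was the one neighbour at least 2-fold lower, with 11 and 7 reads against 19 and 23 (-1.05, SE 0.45). *Sema3a*, *Sema3d* and *Gnat3* had too few reads to be compared.

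Other stretches of chromosome 5 gave a frame for these values. Of the 36 genes compared at 10 to 20 Mb, 61.1% were lower in both knockout libraries than in either control. At least 2-fold lower were 25%, and the median log2 fold change was -0.42. Of these 36 genes 27 were *Speer* or *Speer*-related. The 9 neighbours had a median of 0.03, and 2 of them were lower in both, where 19.2% of all genes were. At 0 to 10 Mb the share lower in both was 25% of 36 genes, none was 2-fold lower, and the median was -0.01. At 20 to 30 Mb it was 26.0% of 73 genes, 2 were 2-fold lower (one of them *Speer4b*), and the median was also -0.01. Beyond 30 Mb, the stretches of 10 Mb had shares lower in both of 5 to 23.5% and medians of -0.04 to 0.08. At least 2-fold lower there were 0 to 12.5%. The 20 to 30 Mb stretch holds 11 more genes with *Speer* sequence that the rule did not take, all within 25.9 to 26.3 Mb around *Speer4a*. Their median log2 fold change was -0.31, and 4 of the 11 were lower in both knockout libraries, where 19.2% of all genes were. The largest difference among them was that of *Gm10220*, with 40 and 42 reads in knockout testis against 101 and 72 (log2 fold change -0.93), and none was at least 2-fold lower.

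The share of unique reads in the 2 controls set the copies apart from other genes. Among members with at least 10 reads in every library its median was 98.4% for *Speer* genes and 63.5% for *Speer*-related genes, beside 100% for all genes, of which 84.7% had only unique reads. Under 50% unique were 1 of 10 *Speer* genes and 6 of 18 *Speer*-related genes, beside 3.08% of all genes. The share was lower the more of a gene's 150-base words (the length of a read) occur in other genes, with r = -0.93 and rho = -0.94 across 28 *Speer* and *Speer*-related genes. It did not track the log2 fold change between genotypes (r = 0.10 and rho = 0.18 over 30 genes). These genes share libraries and sequence and are not independent, so no p is given.

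**Figure D4:**
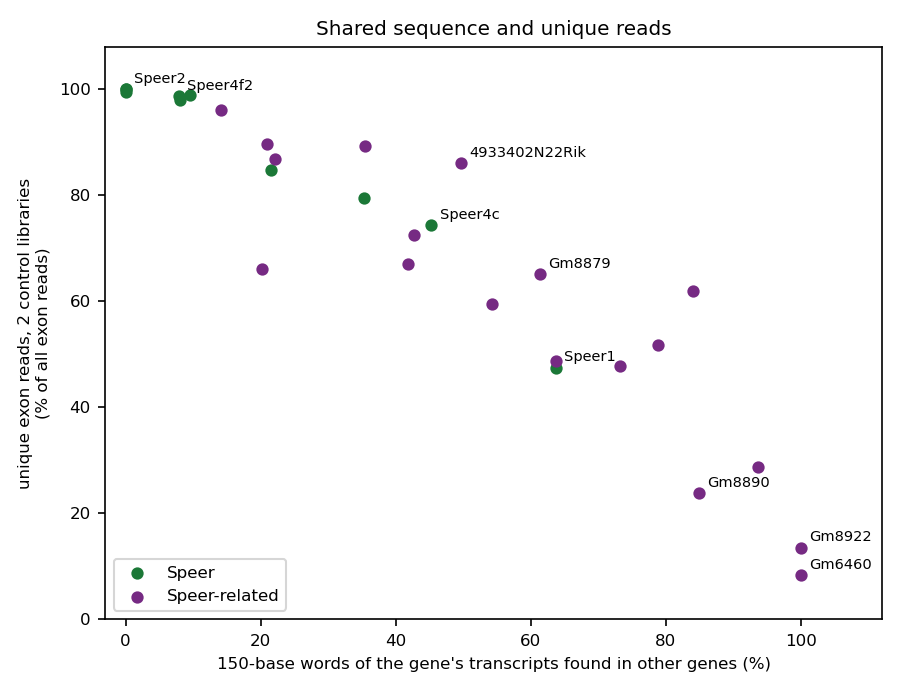
Share of exon reads that were unique in the 2 control libraries together (percent), against the percent of a gene's 150-base words found in transcripts of other genes; each point is a *Speer* (green) or *Speer*-related (purple) gene with at least 10 reads in every library. *Speer2* sits at the upper left with all reads unique, *Speer1* at 47.5%, and *Gm8922* and *Gm6460*, all of whose words occur elsewhere, at the lower right at 13.5 and 8.25%.

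Summed over genes, the unique share was 88.7 and 87.0% for *Speer* genes in the 2 controls. For *Speer*-related genes it was 62.3% (95% Wilson interval 60.9 to 63.7%) in control replicate 1 and 55.6% (54.2 to 57.0%) in control replicate 2, and these intervals, which cover counting error only, did not overlap. Single genes differed likewise, such as *Gm8922*, at 19.6 and 9.74%, and *Gm6465*, at 58.6 and 45.9%. The controls thus differed in this share with no difference in genotype, while over all genes the controls stood at 97.6 and 97.5%.

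The promoters of *Speer4f1* and *Speer4f2* are shown because the genes were so unlike in the comparison. They were read 5′ to 3′ from RefSeq on GRCm38.p6, from 250 bases before to 50 after the start, at chr5:17475872-17476171 (+) and chr5:17372936-17373235 (+). Capitals mark bases that differ from *Speer4f1* or have no partner in its window.
Speer4f1: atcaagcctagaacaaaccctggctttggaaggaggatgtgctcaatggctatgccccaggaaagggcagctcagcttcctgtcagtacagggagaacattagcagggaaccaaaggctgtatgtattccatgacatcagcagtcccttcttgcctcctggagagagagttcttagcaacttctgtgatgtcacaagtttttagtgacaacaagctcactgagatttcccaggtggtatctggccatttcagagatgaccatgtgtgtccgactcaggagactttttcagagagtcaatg
Speer4f2: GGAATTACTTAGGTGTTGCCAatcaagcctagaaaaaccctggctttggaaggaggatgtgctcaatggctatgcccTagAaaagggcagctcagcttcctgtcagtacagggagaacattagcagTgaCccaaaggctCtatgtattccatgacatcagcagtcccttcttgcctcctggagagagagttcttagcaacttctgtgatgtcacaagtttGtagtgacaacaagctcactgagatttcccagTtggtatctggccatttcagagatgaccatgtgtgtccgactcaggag
In all, 42 positions had no partner, nearly all of them at the ends, because the windows are offset. Near the start of the shared stretch *Speer4f2* also lacks a base of *Speer4f1*, which capitals cannot show. In the rest 7 bases differed. Promoters of other members with unlike values were as close, such as those of *Gm17019* and *Speer4c*, 98.0% identical, and of *4933402N22Rik* and *Gm6460*, 99.3%.

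RefSeq held 20 promoters of *Speer* and *Speer*-related genes, counting both starts of *Speer1*. Several genes, such as *Gm8879*, *Gm8871* and *Gm8922*, had none there, so the shares are not those of all 30 genes. The letters CCAAT, the core of the CAAT box, were found on either strand in 15 of the 20 (75%), beside 37.4% of 32851 promoters of the same length. TATAAA was in 4 (20%), beside 13.6%. TGACGTCA, the full cAMP response element that factors of the CREM type bind, was in none, beside 1.79%, and its first 5 letters, TGACG, were in 1 (5%), beside 20.8%. Since the copies descend from one another, their promoters are not independent, and the counts describe the letters of these windows only.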

How the data were processed

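Testis RNA of 2 *Parp1* knockout and 2 control libraries was read as pairs of 150 bp. In CLC Genomics Workbench 12.0 the authors trimmed the reads and aligned them to GRCm38 (mm10), and the deposited values are whole-number counts of exon reads per gene, all reads and unique reads. Strand use and the assignment of reads that match several genes are not given in the sources used here. Of the 67 per-library columns in a table of 77, 60 were left out, as were columns of the authors' own comparison (fold change, p-value, adjusted p-values). Both sets of knockout columns carry 1 heading. They were used for all exon reads only, a choice of the present processing and no limit of the table. Unique reads of the knockout libraries were not analysed here, and the fits planned on unique reads were not run.

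Exon read counts were fitted with edgeR 4.0.16 (R 4.3.3). Genes were kept by filterByExpr (minimum count 10, genotype as group), scaled by TMM and fitted with genotype as the only term by the quasi-likelihood method (15834 genes). Adjusted p-values (Benjamini-Hochberg, over every gene tested) were set against a threshold of 0.05. Standard errors were obtained by dividing log2 fold changes by the root of F. TPM was computed from all exon reads and the deposited exon lengths, and differences by library from log2(CPM + 0.1). DESeq2 1.42.0, limma 3.58.1 voom, the likelihood ratio test, RLE or no scaling, other filters and leaving out each library were the alternatives. A depth of 18103863 to 23503503 reads per library left a dispersion equal to a coefficient of variation of 15.3%.

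Members and lists were chosen with earlier results of these data known. Named were every *Speer* gene, the 12 most abundant other rows of the stretch, the 6 with the largest rise and the 6 with the largest fall, the long-known neighbours and *Parp1*, and further members were named after their values were seen. Shared sequence was counted as 31-base or 150-base words found in GENCODE M21 transcripts of other genes. Alignments used Biopython 1.88, and figures matplotlib 3.10.9. Identity was taken over all aligned positions, with gaps counted as not identical.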

Additional observations from a re-analysis of the deposited data

How the results depend on the processing

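The number of genes called over all genes depended on the test and on single libraries. The quasi-likelihood test called 15, against 41 without TMM, 52 without a filter on low counts, 193 by DESeq2 and 374 by the likelihood ratio test. Leaving out each library in turn gave 8 to 3890 calls. The high numbers were 3890 with the deeper knockout library left out and 2752 with the shallower one left out, where the lone knockout library is assumed to vary like the controls, and leaving out either control replicate gave 8. Members called in these fits are not counted here, since each fit leaves a genotype with a single library. Without TMM only *Gm17019* was called among members, and without the filter *Gm10354* and *Gm17019*.

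The median log2 fold change of the *Speer* genes, -0.27, was -0.40 to -0.17 when each library was left out, and -0.070 over the 7 with at least 80% unique reads in the controls, a choice added after seeing the data. That of *Speer* and *Speer*-related genes, a grouping also added then, was -0.62, -0.68 to -0.52 when each library was left out and -0.69 at that share of unique reads. The median of the members other than *Speer*, -0.36, was 0.078 without predicted-gene and clone names, which leaves the long-known neighbours (leaving out each library gave -0.51 to -0.24). The median unique share of the members in the controls, 86.0%, was 74.8% as the sum of unique over the sum of all reads, and 83.6 to 90.2% when each control was left out. Of 360 values of 33 named genes under the alternatives, most of them from fits on the same 4 libraries, 351 kept their sign. The other 9 belonged to 8 genes and arose when 1 library was left out, with 0.0045 for *Cacna2d1*, -0.21 for *Cd36*, -0.0019 for *Gm8857*, -0.03 for *Gnai1*, 0.02 for *Magi2*, -0.14 and -0.05 for *Speer3*, -0.04 for *Speer4c* and 0.01 for *Speer4f1*. The cause was not tested. Alternatives on unique reads were not run. No paired analysis was possible because the knockout columns share a heading and carry no replicate numbers of their own. Few reads limit *Gm8871*, with 4 and 3 in the knockout libraries, and *Sema3a*, *Sema3d* and *Gnat3*, which could not be compared.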

Other observations

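Pairs of related genes were summed after their values were seen. *Speer1* and *Gm8879* together had 847 and 815 reads in knockout testis, against 834 and 843 in control testis, or 41.8 and 42.5 CPM against 40.5 and 35.6 CPM. *Speer1* and *Gm8926*, which share more 31-base words, together had 291 and 306 reads, against 612 and 618. *Speer4f1* and *Speer4f2* together had 189 and 173, against 265 and 287. The last 2 sums were 14.4 and 15.95 CPM against 29.7 and 26.1 CPM, and 9.33 and 9.02 CPM against 12.9 and 12.1 CPM. By CPM the first sum was thus higher in both knockout libraries than in either control, and the other 2 were lower.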
